A study of Mus musculus with 6 samples.

Results

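The genes of glycolysis, lactate exchange and glucose transport were described in the retina of wild-type C57BL6/J mice. The set was a list of 38 symbols covering the glucose transporters, the enzymes that carry glucose to pyruvate and lactate, the monocarboxylate transporters with their partner Bsg, the glycerol phosphate dehydrogenases and the creatine kinases. Its members were found by symbol, and 37 of the 38 were among the 15465 genes of the tables, with Pfkfb1 not among the rows. The study collected total RNA of wild-type retina in 3 biological replicates of 2 technical replicates each, and each library was a pool of 5 mice. The technical replicates of a biological replicate share 1 column of values, so n was 3, and no age, sex or treatment is given in the labels. This grouping follows the sample titles. The source labels number the samples otherwise, in a way that would give any 2 of the columns a pool in common, and the SDs would then not be those of independent pools. With a single group, no comparison between conditions was possible, and the results are levels, the choice of isoform at each step and the spread between pools.

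Glycolysis turns glucose into pyruvate, and lactate dehydrogenase turns pyruvate into lactate and regenerates the NAD+ that the pathway needs. The retina is known for releasing much lactate even when oxygen is present, and photoreceptors account for much of that glucose use. Many of the steps are served by several genes whose proteins differ in kinetics, in regulation and in the tissues that use them, and monocarboxylate transporters with the chaperone basigin carry lactate across the membranes of photoreceptors, Muller glia and pigment epithelium.

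The values are taken as RPKM, reads scaled by transcript length and by the library's reads, a unit inferred from the numbers because no header names it. Replicates 1, 2 and 3 held 275995, 302634 and 249532 RPKM in total, and the number of reads behind them is unknown. RPKM is a level per length, so levels of different genes are compared on that scale throughout. The tissue label was checked with marker lists. The sum over 6 rod genes, led by Gnat1 and Sag, was 8894, 10448 and 8829 RPKM in replicates 1, 2 and 3, and that over 6 Muller glia genes, led by Clu and Glul, was 1080, 1005 and 847 RPKM. Genes of neighbouring tissues were present as well. In replicates 1, 2 and 3, the sum of 10 pigment epithelium markers was 563, 537 and 309 RPKM and that of 10 lens markers, led by Crygc and Crygd, 655, 316 and 1744 RPKM. The 9 skeletal muscle markers, led by Mylpf and Acta1, summed to 8.92, 26.2 and 6.37 RPKM, and of these Tnnt3, Myh1 and Myh2 were listed at 0 in replicate 3. In whole retina, fewer cells of a type and less RNA per cell cannot be told apart.

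Sequence decides which of these genes a read can be assigned to, so it was examined first. Within a step the isoforms were distinct. Over 24 pairs of isoforms, coding sequences were between 56.4% and 77.8% identical, the longest identical run was between 11 and 36 bases, and 0 pairs shared a window of 50 bases. Ldha and Ldhb, the lactate dehydrogenase genes of chromosomes 7 and 6, show the degree of difference. The stretch of 90 bases around their longest identical run is given below from the GENCODE M21 transcripts (GRCm38), coding strand, 5′ to 3′, with the 19 bases that differ in capitals.

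Ldha: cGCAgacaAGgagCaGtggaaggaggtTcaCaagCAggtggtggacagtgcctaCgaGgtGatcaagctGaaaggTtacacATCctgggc

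Ldhb: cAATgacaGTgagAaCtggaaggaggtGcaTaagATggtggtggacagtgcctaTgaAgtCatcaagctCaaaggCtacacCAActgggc

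Aldoa of chromosome 7 and Aldoc of chromosome 11, the muscle and brain aldolases, were closer, with 75.9% identity over their coding sequences, against 73.0% for Ldha and Ldhb, and a longest identical run of 26 bases. The 90 bases around that run hold 12 differing bases, again in capitals.

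Aldoa: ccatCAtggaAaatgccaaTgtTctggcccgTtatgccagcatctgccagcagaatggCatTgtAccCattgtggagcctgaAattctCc

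Aldoc: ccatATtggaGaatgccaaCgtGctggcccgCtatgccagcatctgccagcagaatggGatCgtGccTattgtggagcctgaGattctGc

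Some members, Ldha, Ldhb and Aldoa among them, nevertheless shared sequence with annotated genes other than these isoforms. Of the 37 members, 8 had over 20% of their windows of 50 bases in the transcripts of another annotated gene, against 6.47% of 15231 genes with a transcript length. The highest shares were those of Gapdh with 78.3%, Eno1 with 72.2%, Pgk1 with 68.0% and Pgam1 with 41.5%. Most of this came from 1 copy in each case, the processed pseudogene Gm7336 for Gapdh (78.2% of its windows), the protein-coding retrogene Eno1b for Eno1 (70.5%), and the processed pseudogenes Pgk1-rs7 for Pgk1 (67.9%) and Pgam1-ps2 for Pgam1 (41.5%). Pkm2 (36.3%), Ldhb (27.0%), Pfkfb2 (22.8%) and Ckb (21.9%) followed, then Gpi1 (19.3%), Ldha (15.6%), Aldoa (11.2%) and Tpi1 (7.51%). The coding sequence of Pgk1, on chromosome X, was 100% identical over 1250 aligned bases to Pgk1-rs7, on chromosome 12. This is shown by 60 bases of Pgk1, coding positions 597 to 656, which occur letter for letter in the copy, so that no base is in capitals.

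Pgk1: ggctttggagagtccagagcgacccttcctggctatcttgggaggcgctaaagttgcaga

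Pgk1-rs7: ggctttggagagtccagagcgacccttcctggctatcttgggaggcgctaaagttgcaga

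How reads matching several places were counted is not given in the sources used here. Levels of Gapdh, Eno1, Pgk1 and Pgam1 are therefore uncertain wherever they appear. The doubt extends to the other genes with shared windows, whose shares were smaller, and to the ratios and shares within a step that use them. The part of shared sequence in any of these levels was not tested.

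As a set, the members stood high in the retina. A level of 1 RPKM or more in every replicate was reached by 31 of 37 members, against 77.5% of all genes. A mean of at least 10 RPKM was found for 23 members, against 37.8% of all genes, and of at least 50 RPKM for 15 members, against 5.77%. At 100 RPKM there were 12 members, against 2.11% of all genes, and at 500 RPKM there were 4, against 0.200%. The median member had 26, 27.5 and 17.3 RPKM in replicates 1, 2 and 3, against 5.91, 6.54 and 5.81 RPKM for the median over all genes. The summed RPKM of the 37 genes was 2.00% ± 0.200 of that of all genes (SD, n = 3). The levels were uneven, and reached from 0.0200 RPKM for Fbp1 to 1099 RPKM for Aldoa.

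**Figure D1:**
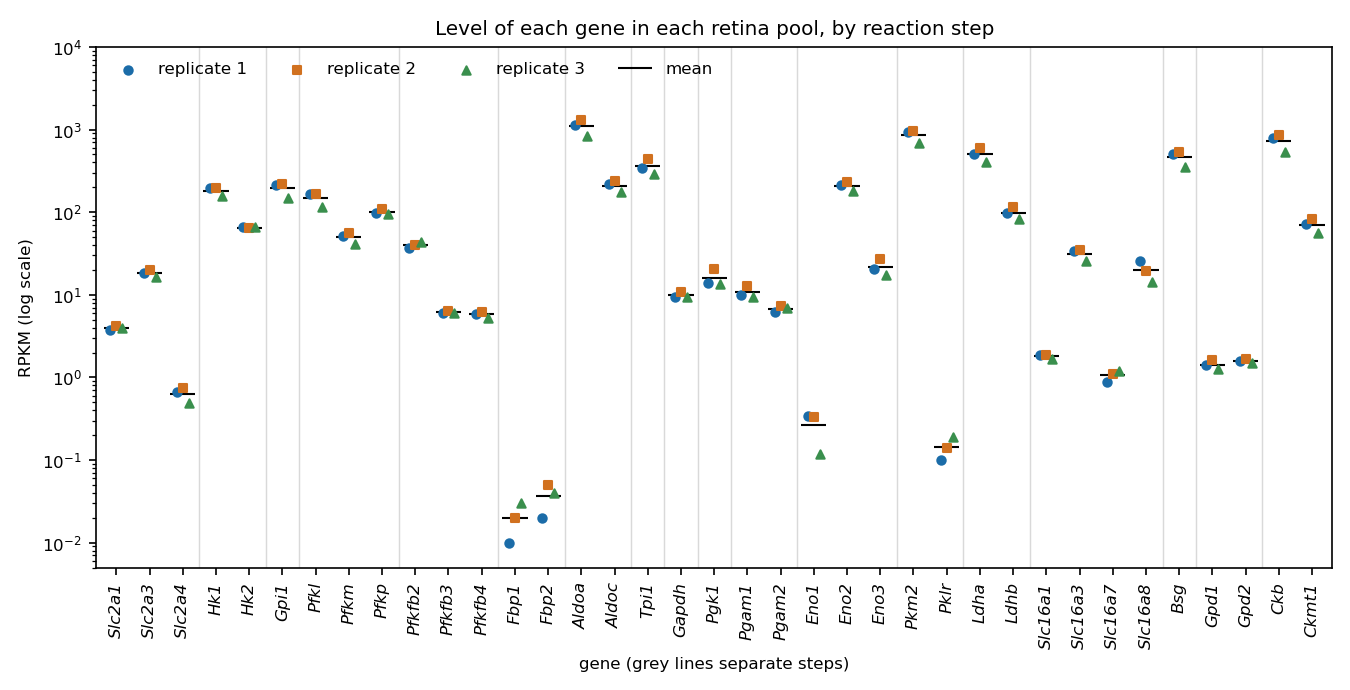
RPKM of each of the 37 genes (log scale) in retina replicates 1, 2 and 3, with the mean as a line and reaction steps separated by grey lines. Aldoa, Pkm2, Ckb and Ldha lie above 500 RPKM on average, whereas Gapdh, Pgk1, Pgam1 and above all Eno1 lie far below Tpi1 and Pkm2.

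Glucose enters retinal cells through facilitative transporters. Slc2a3, the high-affinity neuronal transporter, had 18.3, 19.9 and 16.4 RPKM in replicates 1, 2 and 3. The row named Slc2a1, the gene of the transporter of blood-brain and blood-retina barriers, had 3.75, 4.16 and 3.93 RPKM, and Slc2a4, the insulin-regulated transporter of muscle and fat, had 0.67, 0.74 and 0.49 RPKM. Neither Slc2a3 nor the Slc2a1 row varied in the test between pools described below, and Slc2a4 was below the level tested. Slc2a3 exceeded the Slc2a1 row 4.61 ± 0.387 times and Slc2a4 29.2 ± 3.67 times (SD, n = 3).

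The Slc2a1 value cannot be taken at face value. In these tables, many rows whose symbols begin with a shorter symbol followed by a digit held very different values between replicates. Slc2a1 is such a stem, and this was recognised after the values were seen. Slc2a12 had 68.1 and 56.7 RPKM in replicates 1 and 3 but 0.84 RPKM in replicate 2. Slc2a13 showed the reverse, with 111 RPKM in replicate 2 and 1.18 and 1.11 RPKM in replicates 1 and 3. A single high value thus stood among the 4 rows of this stem in each replicate, and it changed row. Together the rows held 73.3, 116 and 61.9 RPKM in replicates 1, 2 and 3, of which the Slc2a1 row held little. To which of the 4 genes the high value belongs cannot be told from the symbols alone, so neither the level of Slc2a1 nor the leading place of Slc2a3 is established. With all Slc2a rows as the denominator, Slc2a3 held 14.9% of the summed RPKM, against 79.9% ± 0.963 among the 3 listed transporters. Slc2a8, an intracellular transporter whose symbol has no such extension, had 19.3, 18.4 and 13.4 RPKM, and its level differed from that of Slc2a3 by less than the spread between replicates (Slc2a3 over Slc2a8 1.09 ± 0.137). Slc2a6 had 6.71, 6.91 and 5.3 RPKM, and Slc2a9, a urate transporter, at most 0.15 RPKM.

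**Figure D2:**
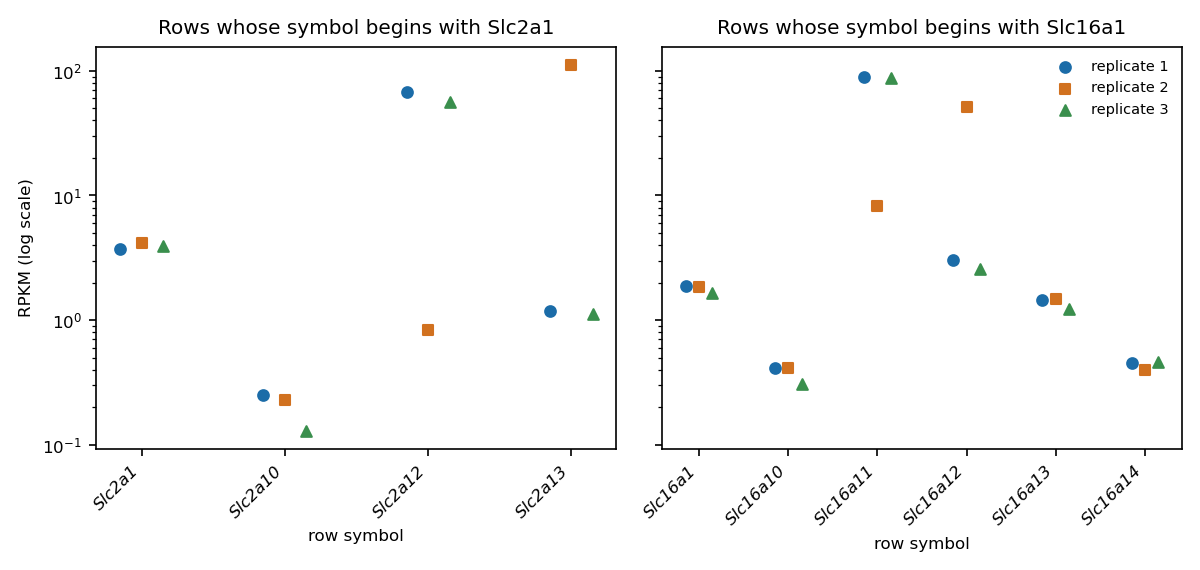
RPKM (log scale) in replicates 1, 2 and 3 of the rows whose symbols begin with Slc2a1 (left) and Slc16a1 (right). In each stem the highest value stands in a different row in replicate 2 than in replicates 1 and 3, while the rows named Slc2a1 and Slc16a1 hold 3.75 to 4.16 and 1.65 to 1.88 RPKM.

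Hexokinase traps glucose by phosphorylation. Hk1, the general isoform of brain, had 194, 198 and 156 RPKM in replicates 1, 2 and 3, and Hk2, an isoform of insulin-sensitive muscle and of tumours that is also known from photoreceptors, had 66.4, 63.6 and 65.6 RPKM. The values of Hk1 lay above those of Hk2 in each replicate with no overlap, by 2.80 ± 0.377 times (SD, n = 3). Hk2 itself stood above 96.1% of all genes. Hkdc1, a further gene of the hexokinase family, had 4.76, 5.8 and 4.11 RPKM. Gpi1, the only glucose phosphate isomerase gene of the list, had 215, 221 and 148 RPKM.

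Phosphofructokinase, the main control point of the pathway, is a tetramer of subunits from 3 genes. Pfkl, the liver subunit, had 167, 166 and 115 RPKM in replicates 1, 2 and 3. Pfkp, the platelet subunit, had 97.3, 108 and 94.3 RPKM, and Pfkm, the muscle subunit, had 51.3, 55.5 and 41.8 RPKM. Pfkl was highest in each replicate, yet its ratio to Pfkp, 1.71, 1.53 and 1.22 in replicates 1, 2 and 3, was not larger than the spread between replicates. A ratio was called larger where the mean on the log2 scale exceeded 3 SD and all replicates had the same sign. Here it was 0.56 ± 0.25, and without replicate 3 it was 0.69 and passed. Pfkm lay below both, with Pfkl 2.99 ± 0.252 and Pfkp 2.04 ± 0.192 times higher (SD, n = 3). All 3 subunits were thus among the abundant genes, with 49.6% ± 3.59, 33.8% ± 3.44 and 16.6% ± 0.290 of the summed RPKM for Pfkl, Pfkp and Pfkm.

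The PFKFB genes encode bifunctional enzymes that make and break fructose bisphosphate of the regulatory kind, the strongest activator of phosphofructokinase. Pfkfb2, known as the heart isoform, had 37, 40 and 43.6 RPKM in replicates 1, 2 and 3. Pfkfb3, an isoform with high kinase activity, had 6.09, 6.44 and 6.05 RPKM, and Pfkfb4 had 5.81, 6.27 and 5.3 RPKM. Pfkfb2 was 6.50 ± 0.625 times Pfkfb3 (SD, n = 3) and took 77.0% ± 2.08 of the summed RPKM of the 3 genes. Pfkfb3 exceeded Pfkfb4 in each replicate, by 1.07 ± 0.0609 times, a ratio that did not pass 3 SD on the log2 scale. Fructose bisphosphatase runs the opposing reaction of gluconeogenesis, and its genes were close to absent from the values, with 0.01, 0.02 and 0.03 RPKM for the liver gene Fbp1 and 0.02, 0.05 and 0.04 RPKM for the muscle gene Fbp2. Fbp2 was 2, 2.5 and 1.33 times Fbp1 in replicates 1, 2 and 3. After 0.1 RPKM was added to each value, the log2 ratio was 0.18 ± 0.12, not larger than the spread. Without replicate 2 it was 0.12 and passed. The added 0.1 RPKM exceeds every value of both genes, so neither call says which gene was higher. Of the other genes of gluconeogenesis, Pck1, the cytosolic phosphoenolpyruvate carboxykinase, was listed at 0 in each replicate and G6pc2 had at most 0.01 RPKM. Pck2, its mitochondrial counterpart, had 6.6, 6.68 and 4.76 RPKM and G6pc3, the widely expressed glucose phosphatase, 33.8, 37.4 and 25.6 RPKM.

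Aldolase splits the doubly phosphorylated sugar into trioses. Aldoa had 1148, 1310 and 839 RPKM in replicates 1, 2 and 3, the highest level of the set and rank 12 among all genes. Aldoc had 217, 237 and 175 RPKM. Aldoa exceeded Aldoc in each replicate by 5.202 ± 0.363 times (SD, n = 3), and the values did not overlap. The retrogenes Aldoart1 and Aldoart2, which are known from testis and of which Aldoart1 shares 5.16% of the windows of Aldoa, were listed with 19.4, 21.4 and 14.6 RPKM and with 16.6, 16.9 and 10.7 RPKM. The ratio of Aldoa to Aldoart1 was nearly constant between pools at 59.2, 61.1 and 57.6, whereas that to Aldoart2 was 69.4, 77.6 and 78.7. These retrogene rows were singled out after their values were seen.

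The steps from triose to phosphoenolpyruvate had very uneven levels. Tpi1, triose phosphate isomerase, had 346, 443 and 294 RPKM in replicates 1, 2 and 3. Gapdh, which makes the first high-energy phosphate and the NADH, had only 9.32, 10.8 and 9.51 RPKM. Pgk1, phosphoglycerate kinase, had 13.8, 20.3 and 13.6 RPKM, and Pgam1, the general phosphoglycerate mutase, 10.03, 12.9 and 9.46 RPKM. These are the genes with copies described above, and Tpi1, with 7.51% of its windows shared, exceeded each of them by a wide margin in every replicate. Pgam2, the muscle mutase, with 0 shared windows, had 6.14, 7.38 and 6.85 RPKM. Pgam1 exceeded it 1.59 ± 0.190 times (SD, n = 3), a ratio that no longer passed 3 SD without replicate 1 (0.63 on the log2 scale, against 0.65 with all replicates). Muscle markers summed to 8.92, 26.2 and 6.37 RPKM. Pgam2 was likewise highest in replicate 2 before scaling of the replicates, though not after it, and their part in Pgam2 was not tested.

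Of the 3 listed enolase rows, that of the neuronal gene had the highest level. Eno2 had 214, 229 and 180 RPKM in replicates 1, 2 and 3, Eno3, the muscle enolase, 20.4, 27.5 and 17.3 RPKM, and Eno1, the general enolase, 0.34, 0.33 and 0.12 RPKM. Eno2 lay above Eno3 in each replicate, by 9.75 ± 1.22 times (SD, n = 3). Eno3 was highest in replicate 2, where muscle markers were highest, and their part in its level was not tested. Eno1 had 72.2% of its windows in other genes, so the share of Eno2, 90.5% ± 1.16 of the summed RPKM of the step, covers only reads that were assigned to these 3 rows.

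**Figure D3:**
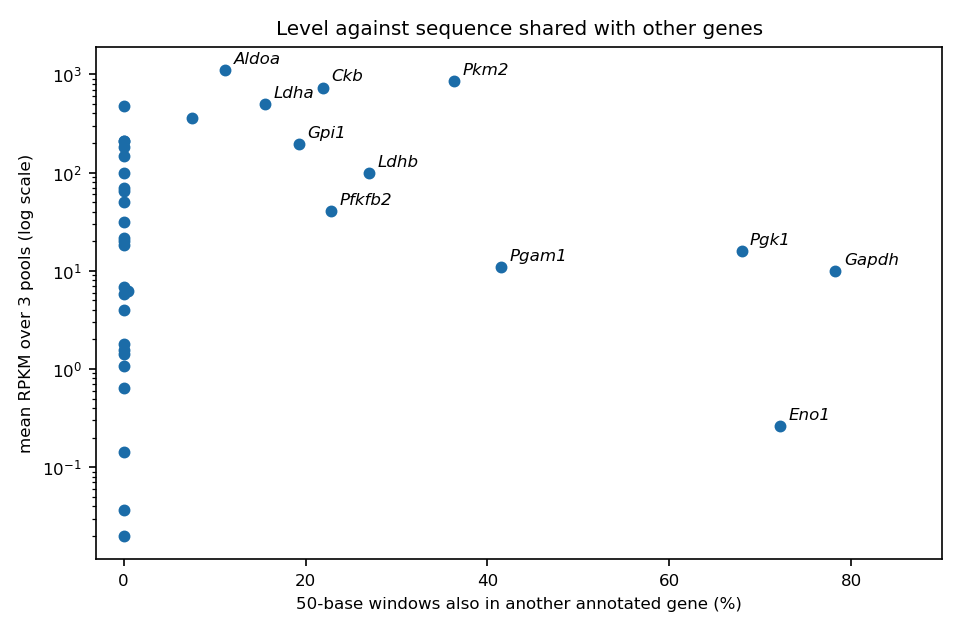
Mean RPKM over 3 pools (log scale) against the percentage of 50-base windows that also occur in another annotated gene, for the 37 genes. Gapdh, Eno1, Pgk1 and Pgam1, with 41.5% to 78.3% of windows shared, had means of 0.263 to 15.9 RPKM, whereas Pkm2 with 36.3% had 855 RPKM.

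Pyruvate kinase closes glycolysis. The row Pkm2, the older symbol of Pkm, had 925, 957 and 682 RPKM in replicates 1, 2 and 3 and rank 16 among all genes. It pools the muscle and fetal splice forms of the gene, which these gene-level values cannot separate. Its symbol extends Pkm by a digit, as in the stems above, but there was no row Pkm. Pklr, the liver and red cell gene, had 0.1, 0.14 and 0.19 RPKM, so Pkm2 took 99.98% of the step.

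Lactate dehydrogenase RNA was mostly that of the A type, the subunit associated with lactate production, while the B type is associated with lactate use. Ldha had 502, 601 and 401 RPKM and Ldhb 96.8, 116 and 83.1 RPKM in replicates 1, 2 and 3. The ratio was 5.18, 5.195 and 4.82, or 5.07 ± 0.211 (SD, n = 3). On the log2 scale its SD was 0.06, the smallest of the 13 steps with several genes. Ldha had 15.6% and Ldhb 27.0% of their windows in other genes, and the part of this in the ratio was not tested. Ldhd, a mitochondrial dehydrogenase of D-lactate, had 2.5, 2.54 and 1.88 RPKM.

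Lactate leaves and enters cells through monocarboxylate transporters. Slc16a3, the low-affinity exporter of glycolytic cells, had 34, 35.2 and 25.6 RPKM in replicates 1, 2 and 3. Slc16a8, the transporter of the pigment epithelium, had 26, 19.6 and 14.3 RPKM, and Slc16a7, a high-affinity transporter of neurons, 0.89, 1.09 and 1.2 RPKM. Slc16a3 was higher than Slc16a8 in 3 of 3 replicates, but by 1.31, 1.80 and 1.78 times, which on the log2 scale (0.69 ± 0.26) was not larger than the spread. Without replicate 1 it was 0.84 and passed. The row Slc16a1, the gene of the widely expressed lactate transporter of photoreceptors and glia, had 1.88, 1.86 and 1.65 RPKM and carries the same doubt as Slc2a1. Slc16a11 had 90, 8.17 and 87.6 RPKM and Slc16a12 had 3.04, 51.7 and 2.59 RPKM in replicates 1, 2 and 3, so again the highest value of the stem changed row in replicate 2. The 6 rows of the stem summed to 97.3, 64 and 93.9 RPKM, more than Slc16a3 in each replicate, and the leading place among monocarboxylate transporters is not settled by these tables. With all Slc16a rows as the denominator, Slc16a3 held 18.3%, against 58.3% ± 3.64 among the 4 listed. Slc16a6, whose symbol is no such stem, had 27.2, 28.2 and 27.3 RPKM, a level that differed from that of Slc16a3 by less than the spread (0.890 ± 0.154 times).

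Bsg, the basigin that brings monocarboxylate transporters to the membrane and whose loss is known to impair photoreceptors in mice, had 513, 542 and 356 RPKM and rank 32. It exceeded Slc16a3 14.8 ± 0.766 times (SD, n = 3). Emb, the embigin partner of other monocarboxylate transporters, had 9.9, 12.9 and 9.93 RPKM.

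The glycerol phosphate shuttle moves electrons of cytosolic NADH into mitochondria through a cytosolic and a mitochondrial dehydrogenase. Both were low. Gpd1, the cytosolic enzyme, had 1.41, 1.63 and 1.25 RPKM and Gpd2, the mitochondrial enzyme, 1.57, 1.66 and 1.48 RPKM. Gpd2 exceeded Gpd1 1.11 ± 0.0831 times, a ratio that did not pass 3 SD on the log2 scale. Without replicate 2 the ratio was 0.19 on the log2 scale and passed 3 SD. Gpd1l, a relative of Gpd1 outside the list, had 7.25, 6.96 and 7.18 RPKM, above both in each replicate. The genes of the malate and aspartate shuttle, the other route, were higher. Mdh2 had 179, 195 and 138 RPKM, Mdh1 164, 201 and 143 RPKM and Got1 122, 136 and 93.5 RPKM. Of its carriers, Slc25a11 (13.97, 73.0 and 9.11 RPKM) and Slc25a12 (59.0, 13.2 and 52.0 RPKM) changed places in replicate 2, in rows of another such stem.

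Creatine kinase buffers ATP. Ckb, the brain form, had 787, 863 and 540 RPKM in replicates 1, 2 and 3, and Ckmt1, the mitochondrial form of brain and epithelia, 72.6, 82.3 and 55.9 RPKM. Ckb was 10.3 ± 0.602 times higher (SD, n = 3) with no overlap, and took 91.2% ± 0.479 of the pair. The muscle forms Ckm (2.36, 3.89 and 1.86 RPKM) and Ckmt2 (0.05, 0.86 and 0.05 RPKM) were low and highest in replicate 2, as the muscle marker sum was. Ckm is itself among the markers of that sum, so its match with the sum is partly built in.

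Over the 13 steps with several listed genes, the leading gene was above the next in 3 of 3 replicates at each step. The lead was larger than 3 SD at 9 of them. Among these 9 the ratio of the glucose transporters rests on the Slc2a1 row, and that of the mutases on a gene with 41.5% of its windows shared. The lead of Eno2 among the enolases rests on the low level of Eno1, a gene with 72.2% of its windows shared. Of the other leading genes, Pfkfb2, Aldoa, Pkm2, Ldha and Ckb had between 11.2% and 36.3% of their windows shared. The 4 steps that did not pass were Pfkl over Pfkp, Slc16a3 over Slc16a8, Gpd2 over Gpd1 and the very low fructose bisphosphatases. The exact sign-flip test on 3 values cannot give a p below 0.25 and was not used.

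**Figure D4:**
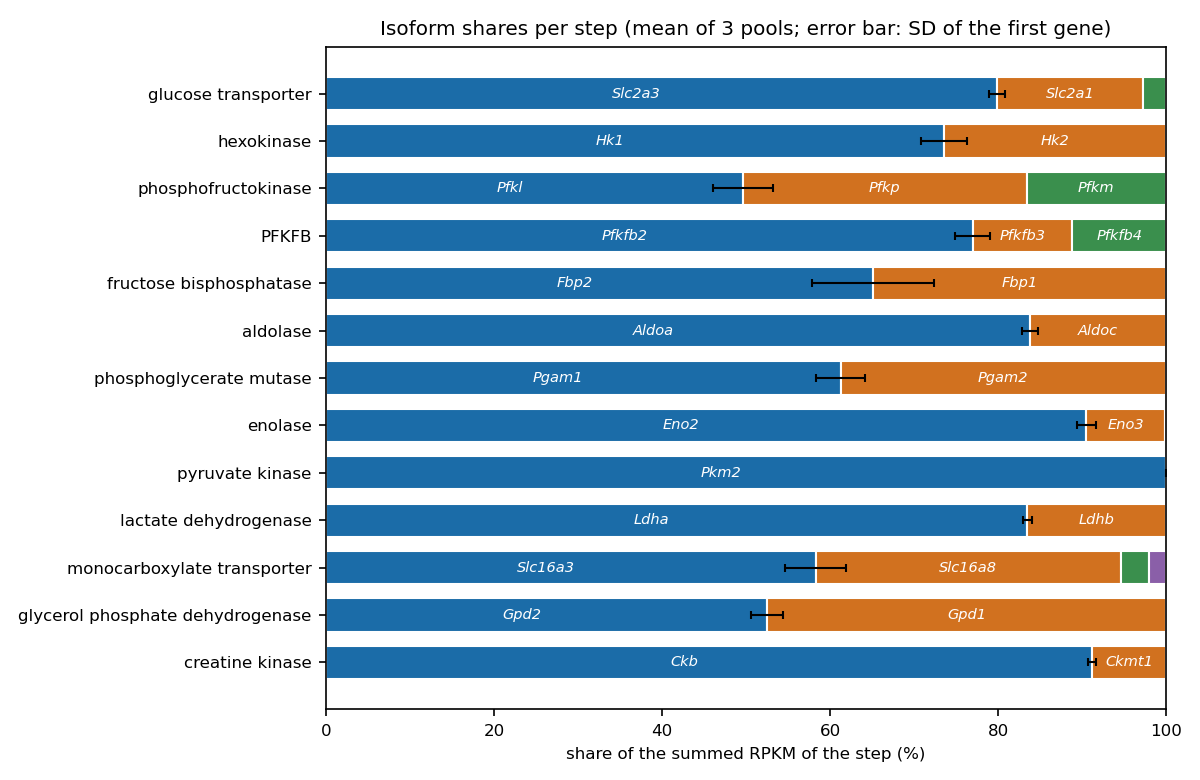
Share of each gene in the summed RPKM of its step (percent, mean of 3 pools), ordered within a step by level, with the SD of the first gene as error bar. The first gene held from 49.6% (Pfkl) to 99.98% (Pkm2), and unlabelled slivers stand for Slc2a4, Slc16a1, Slc16a7, Eno1 and Pklr.

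Variation between pools was then tested over all genes. With limma's robust trended prior and Benjamini-Hochberg adjustment, 0 of the 32 members that averaged at least 1 RPKM varied more than genes of their level, against 5.44% of 12562 genes (683). Of these 683, 91.8% had a symbol that extends a shorter symbol by a digit, or were such a shorter symbol. By contrast, 10474 of the 12562 genes tested had a symbol of neither kind. With an unadjusted p under 0.05 there was 1 member of 32, Slc16a8, against 8.37% of all genes. The non-robust prior called 0 of the 12562 genes, so its 0 members carry no information. Slc16a8, at 26, 19.6 and 14.3 RPKM, had an adjusted p of 0.379 (limma) and an SD of 0.40 on the log2 scale, and it was highest in replicate 1 and lowest in replicate 3. Without replicate 2 its adjusted p was 0.0355 (limma), and over the other alternatives it lay between 0.108 and 0.988. The pigment epithelium, which expresses Slc16a8, had a marker sum of 563, 537 and 309 RPKM over 10 of 10 genes, also lowest in replicate 3. Of the 9 tested, 4 varied in the same test. Pmel (62.7, 51.7 and 18.3 RPKM, adjusted p = 0.0109, limma), Mlana (23.7, 20.6 and 7.09 RPKM, adjusted p = 0.0101, limma) and Tyrp1 (30.3, 26.5 and 11.5 RPKM, adjusted p = 0.0351, limma) were lowest in replicate 3. Rpe65 (6.25, 20.1 and 6.74 RPKM, adjusted p = 0.0144, limma) was highest in replicate 2, and its symbol extends that of another row by a digit. Ttr and Dct had the highest levels of the list. None of the 10 was at 0 in every replicate. Their part in the level of Slc16a8 was not tested.

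The 32 members had a median SD over replicates of 0.14 on the log2 scale, against 0.15 for all 12562 genes. Direction was not even. After scaling of the replicates, 21 of 32 members were lowest in replicate 3, against 36.0% of 12562 genes. The abundant members showed this most. Of the 15 members that averaged at least 50 RPKM, 13 were lowest in replicate 3, the exceptions being Hk2 and Pfkp, and the median deviation there was -0.20 on the log2 scale. Over all 892 genes at that level, 59.3% were lowest in replicate 3 with a median of -0.09. Of the 17 members between 1 and 50 RPKM, 8 were lowest in replicate 3, with a median of -0.02. Over all 11670 genes at that level, 34.3% were lowest in replicate 3 with a median of 0.0067. The comparison by level was chosen after the data were seen. Ckb (-0.31), Bsg (-0.28), Gpi1 (-0.27) and Aldoa (-0.26) deviated most in replicate 3 among the abundant members, while Hk2 (0.11) and Pfkfb2 (0.22) were above their means there. The lens marker sum was highest in replicate 3, at 1744 RPKM, and its part in this order was not tested.

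**Figure D5:**
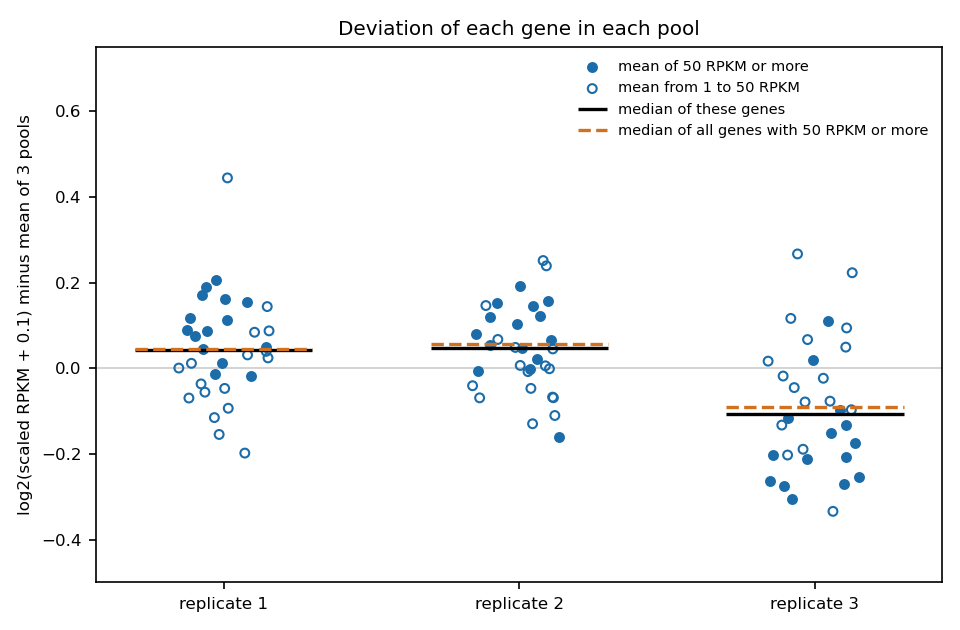
Deviation of each of the 32 genes averaging at least 1 RPKM from its own mean over pools, on the scale of log2(scaled RPKM + 0.1), in replicates 1, 2 and 3. The black line, the median of the 32 genes, lies at -0.11 in replicate 3, where the median of all genes averaging at least 1 RPKM was -0.00034. Filled points average at least 50 RPKM, with a median of -0.20 in replicate 3, against -0.09 for all genes at that level (dashed line).

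Pathways that branch from glycolysis were described from lists. Of the 11 pentose phosphate genes among the rows, which supply NADPH and ribose, 10 had 1 RPKM or more in every replicate and 0 of 10 tested varied. Tkt, transketolase, had 88, 99.7 and 65.9 RPKM, Taldo1, transaldolase, 49.4, 57.8 and 41.1 RPKM, and Pgls 46.3, 52.3 and 32.2 RPKM. The list's median was 17.9 ± 2.54 RPKM (SD, n = 3), below the 23.6 ± 5.52 RPKM of the glycolytic set. Of the 17 glycogen genes, 16 reached 1 RPKM in every replicate and 0 of 16 varied, with a median of 5.72 ± 0.735 RPKM. Pgm2 (36.3, 41.8 and 32.1 RPKM), Pygm (29.3, 29 and 21.0 RPKM) and Pygb (22.7, 22.5 and 17.6 RPKM), the last 2 being glycogen phosphorylases of muscle and brain, were first. Of the 12 genes that admit pyruvate to mitochondria or control it, 11 reached 1 RPKM in every replicate and 0 of 11 varied. They were led by Pdk2, a kinase that inhibits pyruvate dehydrogenase (43.1, 39.9 and 33.0 RPKM), and by Pdhb, a subunit of that dehydrogenase (28.1, 42.7 and 34 RPKM). Next came Brp44, now named Mpc2, a subunit of the pyruvate carrier (26.7, 41.6 and 27.6 RPKM). Brp44l, of the same list, had 1.41, 1.67 and 1.81 RPKM. Pdk4 had at most 0.14 RPKM.

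Among 12 regulators, 10 reached 1 RPKM in every replicate, against 77.5% of all genes, and 0 of 10 varied, against 5.44% of those tested. Nxnl1 and Nxnl2, the genes of the rod-derived cone viability factors, of which the first is known to act on glucose uptake of cones through Bsg, had 99.3, 111 and 104 RPKM and 93.9, 117 and 85.1 RPKM. Hif1a, the oxygen-regulated factor that induces many glycolytic genes, had 73.1, 82.8 and 77.4 RPKM. Of the 28 further genes of the same families, 18 reached 1 RPKM in every replicate, against 77.5% of all genes. Of 19 tested, 4 varied, against 5.44% of all genes tested. They were Slc2a12, Slc2a13, Slc16a11 and Slc16a12 (adjusted p between 1.6e-05 and 0.000105, limma), all in rows of the stems above. Apart from Slc16a12, they were the highest rows of that list. Bpgm, which makes the bisphosphoglycerate of red cells and is expressed elsewhere, had 34, 42.2 and 30.4 RPKM.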

How the data were processed

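Total RNA of wild-type retina was sequenced by the study, and the deposited RPKM values, 1 table of 15468 rows for each of 3 biological replicates, were used as given by the authors. Per the submitters' processing notes, GSNAP and HTSeq were used with genome build mm9. No header or label names the unit, annotation, filters or read depth, so no interval that needs a depth is given. Whether fragments or reads were counted (FPKM or RPKM) is not known. 3 symbols stood on 2 identical rows and were kept once. The count tests planned for deposited counts did not apply. Members and lists were chosen with earlier results of these data known. Every member is named, and of each pathway list the 3 highest genes and those that varied. Marker lists are given by their sum and 2 highest genes where they check the tissue or stand beside a result.

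Scaling factors (0.983, 1.09 and 0.932) came from trimmed log ratios, leaving out 30% by ratio and 5% by level at each end. The test used log2(RPKM + 0.1) of the 12562 genes averaging at least 1 RPKM. This scale understates changes of low genes. Each gene's variance was set against limma's robust trended prior in an F test (limma 3.58.1, statmod 1.5.0, R 4.3.3), adjusted by Benjamini-Hochberg at 0.05, and tested on simulated data. Shares and fold ratios within a step do not depend on scaling. Log2 ratios were taken on unscaled values after adding 0.1 RPKM to each, which shrinks the ratios of very low genes. Transcript lengths, coding sequences and windows of 50 bases came from GENCODE M21 (GRCm38). As the builds differ, no coordinates are printed. A window was shared where the same letters occur on the same strand in a transcript of another gene. Symbols that begin with another symbol followed by a digit, and such shorter symbols, numbered 2656 among the 15465 genes. Nothing in the labels says whether pools shared mice, so p-values measure the spread between these columns. Leaving out each replicate, pseudocount, filter, prior, scaling, transcript length and further paralogues were varied.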

Additional observations from a re-analysis of the deposited data

How the results depend on the processing

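Of 158 values recomputed under the alternatives, 128 were counted as unchanged. For log2 ratios this means that the call was kept, and for shares and the median level that the value stayed within its spread. The number of all genes that varied has no such spread, and 476, 621 and 794, against 683, were counted as unchanged. So were the 0 members under the non-robust prior, which carry no information. Only the log2 ratios between genes could change direction, and 0 did. Each ratio had 1 sign in every replicate, so leaving out a replicate or changing the pseudocount could not turn it. Only multiplying by transcript length could. Multiplying by transcript length, which turns levels into shares of reads, moved the share of the leading gene to 83.2% for Slc2a3, 67.2% for Hk1, 53.3% for Pfkl, 71.9% for Pfkfb2, 77.8% for Aldoa, 76.9% for Pgam1, 94.2% for Eno2, 86.0% for Ldha, 61.9% for Slc16a3, 68.6% for Gpd2 and 90.6% for Ckb. It also took the ratios of Slc16a3 to Slc16a8 (1.09 on the log2 scale) and of Gpd2 to Gpd1 (1.11) past 3 SD. With all paralogues among the rows, more genes stand in the denominator. The shares were then 14.9% for Slc2a3, 18.3% for Slc16a3, 81.8% for Aldoa and 15.5% for Gpd2. For Slc2a3 and Slc16a3, the added rows include those of the stems whose high values changed row. For Gpd2 the added gene was Gpd1l, which had 5.05 ± 0.741 times the level of Gpd1 (SD, n = 3) and stood above both listed genes. Without the Slc2a1 row, an alternative chosen after seeing the data, Slc2a3 held 96.7%. With a replicate left out, log2 ratios lay between 0.45 and 0.69 for Pfkl over Pfkp, 0.12 and 0.22 for Fbp2 over Fbp1, 0.085 and 0.19 for Gpd2 over Gpd1, 0.58 and 0.75 for Pgam1 over Pgam2, and 0.61 and 0.84 for Slc16a3 over Slc16a8. The number of members that varied lay between 0 and 1, the lowest adjusted p of a member (limma, Slc16a8) between 0.0355 and 0.988, and the number of all genes that varied between 296 (without replicate 2) and 476, with 413 without replicate 3. That number was 303 with a mean filter of 10 RPKM, 98 without symbols extended by a digit and 0 with the non-robust prior (704 at an unadjusted p under 0.05), against 683. The causes were not tested beyond what each construction changes. No paired analysis was possible because there is a single group. Depth is unknown, so low levels such as those of Fbp1, Fbp2, Pklr and Eno1 carry no detection limit.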
